A study of Mus musculus with 3 samples.

Results

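Resting type 1 conventional dendritic cells, called resting cDC1 here, were selected from droplet single-cell RNA sequencing of mouse dendritic cells differentiated in culture in the presence of FLT3L, a cytokine on which dendritic cell development depends. All cultures came from wild-type C57BL/6 mice, and the cells were differentiated in medium with 50 µM glutamine, in medium with 2 mM glutamine plus 1 µM DON, or in medium with 2 mM glutamine alone as the control. DON, short for 6-diazo-5-oxo-L-norleucine, resembles glutamine and inhibits enzymes that use it. Each condition was 1 library, so every difference below is a difference between 3 libraries with no replicate, no difference was tested, and the intervals given cover counting error only. A barcode was a resting cDC1 when it held a UMI (1 counted RNA molecule) of at least 4 of the 9 genes Xcr1, Clec9a, Batf3, Naaa, Ifi205, Rab7b, Cadm1, Tlr3 and Gcsam. It also had at most 1 UMI of the plasmacytoid lectin Siglech, 0 UMIs of the maturation genes Ccr7 and Fscn1, at most 1 UMI of the proliferation genes Mki67 and Top2a together, and 0 UMIs of the lectin Cd209a. Of 28903 barcodes kept, 1124 met the rule, of which 92 were cultured at 50 µM glutamine, 274 with DON and 758 in the control.

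cDC1 are the dendritic cells that present antigen of dead or infected cells to CD8+ T cells on MHC class I molecules, a process called cross-presentation. They depend on the transcription factors IRF8, BATF3 and ID2, take up dead cells through the receptor CLEC9A, and respond to the T cell chemokine XCL1 through XCR1. Glutamine supplies carbon to the tricarboxylic acid cycle and nitrogen for nucleotides, asparagine and hexosamines, and DON blocks the enzymes that take that nitrogen.

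Genes outside the 9 used in the rule were ranked by how far resting cDC1 stood above the other kept barcodes of the same library. The ranking took the lowest of the 3 libraries' log2 ratios, and its genes were chosen after their values were seen. The other barcodes included cDC1 left out for proliferation, 48 at 50 µM glutamine, 244 with DON and 400 in the control. They also included cells left out for Cd209a, so their levels hold some cDC1 RNA. Ctla2b, a small inhibitor of cysteine proteases, led it, with 162 counts per 1000000 UMIs (CPM) in resting cDC1 against 7.26 CPM in the other barcodes at 50 µM glutamine, 59.3 against 6.05 CPM with DON, and 221 against 23.7 CPM in the control. Snx22, Plbd1, Rtl8b and Dapk2 came next. Id2, the factor that cDC1 need to develop, was at 1228, 1162 and 1308 CPM in resting cDC1 at 50 µM glutamine, with DON and in the control, against 131, 202 and 331 CPM in the other barcodes. Irf8 was at 1748 CPM (95% Poisson interval 1656 to 1844) at 50 µM glutamine, 1832 CPM (1781 to 1884) with DON and 1785 CPM (1753 to 1816) in the control. Cd8a, which marks cDC1 of the spleen but is usually lacking from FLT3L cultures, had no UMI in 92, 274 and 757 cells thinned to 2000 UMIs at 50 µM glutamine, with DON and in the control, which allows shares of up to 3.26%, 1.09% and 0.396%. Itgae (CD103), which marks cDC1 of other tissues, was at 2.61, 4.85 and 13.2 CPM in that order of libraries. Of Id2, Irf8, Cd8a and Itgae, the label therefore rests most on Id2, with a UMI in 82.6%, 82.8% and 90.2% of thinned resting cDC1 and in 98.9%, 99.6% and 99.3% without thinning. Thinned type 2 conventional cells, picked as given below, held an Id2 UMI in 25.1%, 20.8% and 26.1%. Wdfy4 was found in 55.4%, 43.4% and 51.0% of thinned resting cDC1 and in 18.9%, 13.5% and 15.6% of those type 2 cells. Id2 was found in 4.14%, 4.57% and 8.45% of thinned plasmacytoid cells, which were picked by Siglech and Bst2. Irf8 was held by 93.0%, 94.2% and 96.0% of those plasmacytoid cells too.

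The kept barcodes of the 3 libraries had medians of 6890 to 8145 UMIs. The resting cDC1 had medians of 7656 UMIs and 2516 genes at 50 µM glutamine, 9448 UMIs and 2666 genes with DON, and 8811 UMIs and 2467 genes in the control, and their summed UMIs were 767064, 2683021 and 6989161 in that order. The 50 µM glutamine values therefore rest on the fewest cells and have the widest intervals. Between 19 and 31 kept barcodes were shared by a pair of libraries, and none of them was a resting cDC1. A UMI sum over cells does not separate fewer expressing cells from less RNA per cell, so shares of cells are given beside the main genes.

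Resting cDC1 made up the smallest share of the library at 50 µM glutamine. They were 0.953% of kept barcodes there (92 of 9649, exact Clopper-Pearson interval 0.769% to 1.17%), 3.08% with DON (274 of 8887, 2.73% to 3.46%) and 7.31% in the control (758 of 10367, 6.82% to 7.83%). The 3 counting intervals did not overlap, and DON lay between the other conditions. Type 2 cells (cDC2) are the other conventional lineage. They were picked by at least 4 of 9 cDC2 marker genes, at most 2 cDC1 markers and a minimum of UMIs of the MHC class II gene H2-Ab1. Of resting cDC1 and cDC2 together, resting cDC1 were 18.0% at 50 µM glutamine (14.7% to 21.6%), 42.0% with DON (38.1% to 45.9%) and 54.5% in the control (51.8% to 57.1%). These shares also move with how many RNA molecules of the marker genes a cell holds, since a cell with fewer of them can miss the rule.

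Among cDC1 that met the marker rule but for proliferation, the cycling share was highest with DON. Its interval there lay above that of the control and just overlapped that of 50 µM glutamine. Cycling was called without thinning, and resting cDC1 with DON were the deepest, with a median of 9448 UMIs beside 7656 at 50 µM glutamine and 8811 in the control. Cells with 2 or more UMIs of Mki67 and Top2a were 34.3% of resting and cycling cDC1 at 50 µM glutamine (48 of 140, 26.5% to 42.8%), 47.1% with DON (244 of 518, 42.7% to 51.5%) and 34.5% in the control (400 of 1158, 31.8% to 37.4%). Cells that met the rule but held a Cd209a UMI were 39.5% of resting and Cd209a-positive cells at 50 µM glutamine (60 of 152, 31.6% to 47.7%), 11.0% with DON (34 of 308, 7.77% to 15.1%) and 9.22% in the control (77 of 835, 7.35% to 11.4%). At 50 µM glutamine the Cd209a condition therefore removed a larger part of the candidate cells than in the other libraries.

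**Figure D1:**
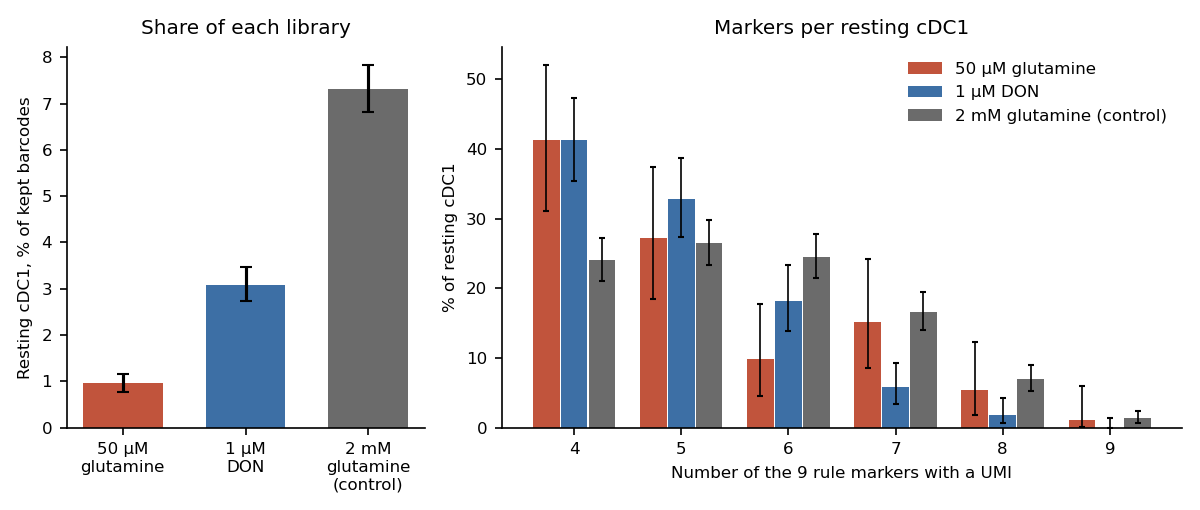
Left, resting cDC1 as a percentage of kept barcodes in each library, with exact 95% binomial intervals. Right, the percentage of resting cDC1 that held a UMI of 4 to 9 of the 9 rule markers, with the same intervals: cells with only 4 markers were 41.3% at 50 µM glutamine, 41.2% with DON and 24.0% in the control.

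Resting cDC1 of the treated libraries carried fewer of the 9 markers per cell. The rule selected cells by this number, so it is a description, and it was not read at equal depth. The members had medians of 7656, 9448 and 8811 UMIs at 50 µM glutamine, with DON and in the control. Cells with exactly 4 markers, the least the rule admits, were 41.3% of resting cDC1 at 50 µM glutamine, 41.2% with DON and 24.0% in the control, and cells with 6 or more were 31.5%, 25.9% and 49.5%. At the threshold itself, the cells just inside held 1592, 1851 and 1723 CPM of Irf8 at 50 µM glutamine, with DON and in the control. The 39, 103 and 138 cells just outside it, with 3 markers, held 982, 1446 and 1333 CPM. Wdfy4, which cross-presentation by cDC1 requires, was at 341, 244 and 290 CPM just inside and at 170, 202 and 234 CPM just outside, in the same order of libraries. A UMI of Xcr1 or Clec9a, the defining receptors, was present in 59.8% of resting cDC1 at 50 µM glutamine, 58.8% with DON and 78.0% in the control.

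The level of the 9 rule markers was uneven, and since the rule chose cells by them their values are a description. With DON, Xcr1 and Cadm1 stood far below the control while Batf3, Ifi205 and Clec9a stayed near it. Xcr1 was at 111 CPM (88.5 to 137) at 50 µM glutamine, 46.2 CPM (38.4 to 55.1) with DON and 166 CPM (157 to 176) in the control, log2 ratios of -0.56 and -1.74 over the control, with 5 CPM added to each level as in every ratio here. Cadm1, an adhesion molecule of cDC1, was at 80.8 CPM (62.0 to 104), 21.6 CPM (16.4 to 27.9) and 58.9 CPM (53.4 to 64.9) in that order, ratios of 0.42 and -1.26. The DON library was lowest for both genes, and its intervals overlapped neither of the others. Batf3, the factor that sustains Irf8 in cDC1, was at 156, 180 and 172 CPM, and Clec9a at 97.8, 74.5 and 91.0 CPM, again for 50 µM glutamine, DON and the control. Naaa, a lipid amidase of lysosomes, was at 624, 412 and 656 CPM, Tlr3, the sensor of double-stranded RNA, at 91.3, 60.4 and 84.0 CPM, and Rab7b at 430, 316 and 344 CPM. Ifi205 was at 249, 257 and 293 CPM and Gcsam at 6.52, 2.98 and 9.87 CPM. Of the 9, none was at least 1.5-fold higher or lower at 50 µM glutamine and 4 were at least 1.5-fold lower with DON, namely Xcr1, Cadm1, Gcsam and Naaa, where 3.73% and 1.63% of all genes measured were that much lower in the same comparisons. Nothing is read from that count, because the rule used these genes.

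Xcr1 was also held by a smaller share of cells with DON. After thinning each cell to 2000 UMIs, an Xcr1 UMI was found in 16.3% of resting cDC1 at 50 µM glutamine (9.42% to 25.5%), 6.93% with DON (4.23% to 10.6%) and 23.5% in the control (20.5% to 26.7%), and without thinning in 34.8%, 25.5% and 53.7%. Plasmacytoid cells, expected to lack Xcr1, gave a measure of free RNA, with thinned shares of 0.131%, 0 of 2014 cells and 0.454% at median depths of 5155, 6296 and 5422 UMIs. A count of 0 in 2014 cells allows up to 0.149%. A Cadm1 UMI was found in 9.78%, 5.11% and 10.3% of thinned resting cDC1 at 50 µM glutamine, with DON and in the control, against 0.716%, 0.792% and 1.11% of cDC2 and 5.79%, 8.39% and 7.996% of plasmacytoid cells, and without thinning in 33.7%, 16.4% and 33.6% of resting cDC1. Cadm1 was thus held by plasmacytoid cells too. With DON it was at 21.6 CPM in resting cDC1 against 19.9 CPM in all other barcodes, cDC1 outside the rule among them.

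The level of Xcr1 differed with the depth of the cells. Among cells of 8000 or more UMIs it was at 159, 44.0 and 177 CPM at 50 µM glutamine, with DON and in the control, and among cells under 8000 UMIs at 41.3, 58.5 and 129 CPM. The DON library was lowest among the deeper cells and the 50 µM glutamine library among the others. The rule selected cells by Xcr1, so these values are a description as well.

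Over all genes, the rule markers included, 12 of 5324 of at least 20 CPM in either library (0.225%) were at least 2-fold lower with DON than in the control, and 2 (0.0376%), Hpgd and Ms4a4c, were at least 2-fold higher. The genes lowest with DON included several of cDC1. Ctla2b was at 162 CPM (134 to 193) at 50 µM glutamine, 59.3 CPM (50.4 to 69.2) with DON and 221 CPM (210 to 232) in the control, ratios of -0.44 and -1.81, and its thinned share of cells was 19.6%, 6.57% and 25.9%. In plasmacytoid cells that share was 0.262%, 0.248% and 0.635%. Ctla2b has a closely related neighbour, Ctla2a, on chromosome 13, and how the counting split reads between them is not given in the sources used here. Ctla2a itself was at 3.91, 2.24 and 89.4 CPM in resting cDC1, and 98.6% of its UMIs in the control were in 1 barcode.

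Cd81, a tetraspanin of the cell surface, was named after its values were seen. It was at 57.4 CPM (41.7 to 77.0) at 50 µM glutamine, 6.34 CPM (3.69 to 10.1) with DON and 43.8 CPM (39.0 to 49.0) in the control, ratios of 0.35 and -2.11. A Cd81 UMI was found in 23.9%, 3.28% and 21.1% of resting cDC1 without thinning. In cDC2 it was at 13.1, 0.976 and 2.16 CPM.

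The other genes lowest with DON spanned lipid enzymes, surface receptors and cytokine signalling. Agpat3, which acylates lysophosphatidic acid, was at 36.5 CPM (24.3 to 52.8) at 50 µM glutamine, 25.3 CPM (19.7 to 32.1) with DON and 56.1 CPM (50.7 to 61.9) in the control, ratios of -0.56 and -1.01. Tgfbi, a matrix protein induced by TGF-β, was at 91.3, 51.4 and 106 CPM, ratios of -0.21 and -0.98. Havcr2 (TIM-3), an inhibitory receptor of cDC1, was at 49.5, 25.3 and 54.2 CPM, ratios of -0.12 and -0.96. These 3 genes were lowest with DON, while at 50 µM glutamine their intervals overlapped those of the control. For Agpat3 the interval at 50 µM glutamine overlapped that with DON as well. Tbxas1, thromboxane synthase, was at 96.5, 38.0 and 74.4 CPM, ratios of 0.35 and -0.88. It lay below the control with DON, while at 50 µM glutamine its interval overlapped that of the control. Csf2ra, the α chain of the GM-CSF receptor, was at 79.5, 70.1 and 126 CPM, ratios of -0.63 and -0.80. P2ry14, the receptor for UDP-sugars, was at 124, 80.5 and 145 CPM, ratios of -0.22 and -0.81. Rtl8a and Pi4k2a, at ratios of -0.86 and -0.84 with DON, were nearly as low at 50 µM glutamine, at -0.72 and -0.75.

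Over the list of 24 other cDC1 genes, 19 were measured in the DON comparison. Of these, 5 were at least 1.5-fold lower, beside 1.63% of all genes, and none higher. The median ratio was -0.30 against 0.09 over all 8693 genes. At 50 µM glutamine 20 were measured, of which 2 were at least 1.5-fold lower, beside 3.73% of all genes, and none higher. The median there was 0.00 against 0.10 over all 9007 genes. The 2 were Itgae, at -1.26, and Cd24a, a ligand on cDC1, at 91.3, 115 and 174 CPM and ratios of -0.90 and -0.58. Tlr11, a sensor of parasite profilin, was at 20.9, 9.32 and 24.5 CPM at 50 µM glutamine, with DON and in the control, ratios of -0.19 and -1.04. Wdfy4 was at 402, 290 and 357 CPM, and Flt3, the receptor for the culture's growth factor, at 137, 106 and 117 CPM. Most cDC1 genes of the list were therefore within 1.5-fold of the control in both treatments.

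**Figure D2:**
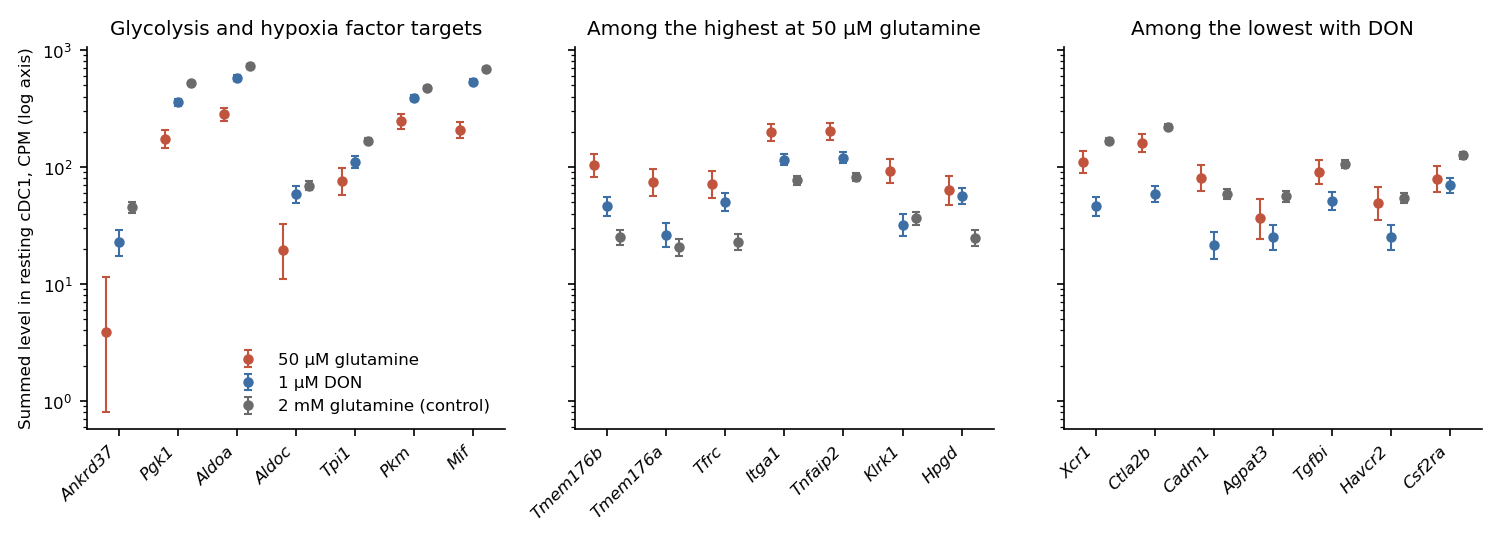
Summed level in resting cDC1 of each library, in CPM on a log axis, with exact 95% Poisson intervals, for 7 glycolysis and hypoxia factor target genes, 7 of the 12 genes with the highest ratios at 50 µM glutamine and 7 of the 12 with the lowest ratios with DON. In the left panel the 50 µM glutamine library is lowest for every gene shown, and in the right panel the DON library is lowest for every gene shown.

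At 50 µM glutamine, 22 of 5456 genes of at least 20 CPM (0.403%) were at least 2-fold lower than in the control and 39 (0.715%) were at least 2-fold higher. In 5 of the 22 and 12 of the 39, at least 20% of the UMIs of the higher library were in 1 barcode. Of the 12 genes of at least 50 CPM with the lowest ratios, Aldoc, Pgk1, Aldoa, Tpi1 and Pkm encode enzymes of glycolysis, the pathway from glucose to pyruvate, and Ctla2a, S100a8, Lpl, S100a9 and Mif had lower ratios than these. Pgk1, phosphoglycerate kinase, was at 175 CPM (146 to 207) at 50 µM glutamine, 357 CPM (334 to 380) with DON and 519 CPM (502 to 536) in the control, ratios of -1.54 and -0.53. Aldoa, an aldolase, was at 282 CPM (245 to 322), 577 CPM (549 to 607) and 734 CPM (714 to 755), ratios of -1.37 and -0.34. Both genes kept the order 50 µM glutamine, DON, control with separate intervals. Aldoc, the other aldolase measured, was at 19.6, 58.5 and 69.3 CPM, ratios of -1.60 and -0.23. Tpi1, triosephosphate isomerase, was at 75.6, 111 and 168 CPM, ratios of -1.11 and -0.58, and Pkm, pyruvate kinase, at 245, 389 and 473 CPM, ratios of -0.94 and -0.28.

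Transporters at either end of the pathway were low as well. Slc2a1 (GLUT1), which takes up glucose, was at 3.91 CPM (0.807 to 11.4) at 50 µM glutamine, 10.4 CPM (6.93 to 15.1) with DON and 17.7 CPM (14.8 to 21.2) in the control, from 3 UMIs in the first library. Slc16a3 (MCT4), which exports lactate, was at 6.52, 6.34 and 21.3 CPM, ratios of -1.19 and -1.22, and so was about as low with DON as at 50 µM glutamine. Gapdh and Ldha, named here after their values were seen, differed less than these: Gapdh was at 969, 1599 and 1737 CPM, ratios of -0.84 and -0.12, whereas Ldha, lactate dehydrogenase A, was at 435, 558 and 545 CPM, ratios of -0.32 and 0.03. Of the 19 glycolysis and glucose transport genes measured, 10 were at least 1.5-fold lower at 50 µM glutamine and none higher, with a median of -0.84 beside 0.10 over all genes, where 3.73% of genes were that much lower. With DON 1 of 19 was at least 1.5-fold lower, Slc16a3, beside 1.63% of all genes, and none higher. The median with DON was -0.23 beside 0.09 over all genes.

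Targets of the hypoxia-inducible factor outside glycolysis were led by Ankrd37 and Mif. Ankrd37, an ankyrin repeat protein, was at 3.91 CPM (0.807 to 11.4) at 50 µM glutamine, 22.7 CPM (17.4 to 29.2) with DON and 45.1 CPM (40.2 to 50.3) in the control, ratios of -2.49 and -0.85. Mif, a cytokine that inhibits macrophage migration, was at 209 CPM (178 to 244), 536 CPM (508 to 564) and 695 CPM (675 to 714), ratios of -1.71 and -0.37. A Mif UMI was found in 34.8%, 64.2% and 68.8% of cells thinned to 2000 UMIs, and in 73.9%, 96.4% and 98.2% without thinning. P4ha1, a collagen prolyl hydroxylase, was at 20.9, 23.9 and 42.1 CPM, ratios of -0.86 and -0.71, and Bnip3, a mitophagy receptor, at 15.6, 13.8 and 27.5 CPM, ratios of -0.65 and -0.79. For both genes the treatments lay close to each other and below the control. Of 17 such targets measured at 50 µM glutamine, 6 were at least 1.5-fold lower, beside 3.73% of all genes, and none higher, with a median of -0.29 beside 0.10 over all genes. With DON 3 of 16 were that much lower, beside 1.63% of all genes, and none higher, with a median of -0.33 beside 0.09.

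Promoter windows, from 250 bases before to 50 after the gene start in RefSeq (GRCm38.p6), are given for Ankrd37, Pgk1 and Mif, chosen after their values were seen, because members of both lists were low together. Capitals mark ACGTG, the core letters bound by hypoxia-inducible factors, or its reverse complement CACGT, and each sequence runs 5′ to 3′ on the gene's strand.
Ankrd37, chr8:45999801-46000100, minus strand: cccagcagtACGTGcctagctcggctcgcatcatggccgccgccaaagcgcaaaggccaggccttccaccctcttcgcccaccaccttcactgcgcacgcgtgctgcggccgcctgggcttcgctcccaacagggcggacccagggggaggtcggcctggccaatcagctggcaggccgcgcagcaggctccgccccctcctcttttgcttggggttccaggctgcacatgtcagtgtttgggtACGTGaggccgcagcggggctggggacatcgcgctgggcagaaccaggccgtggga
Pgk1, chrX:106186850-106187149, plus strand: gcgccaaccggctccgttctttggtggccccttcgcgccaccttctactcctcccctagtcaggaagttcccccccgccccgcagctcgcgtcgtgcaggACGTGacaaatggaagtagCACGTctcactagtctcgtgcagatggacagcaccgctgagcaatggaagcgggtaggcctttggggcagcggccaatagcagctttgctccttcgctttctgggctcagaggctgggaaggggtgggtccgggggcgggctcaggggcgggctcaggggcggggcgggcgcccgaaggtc
Mif, chr10:75860228-75860527, minus strand: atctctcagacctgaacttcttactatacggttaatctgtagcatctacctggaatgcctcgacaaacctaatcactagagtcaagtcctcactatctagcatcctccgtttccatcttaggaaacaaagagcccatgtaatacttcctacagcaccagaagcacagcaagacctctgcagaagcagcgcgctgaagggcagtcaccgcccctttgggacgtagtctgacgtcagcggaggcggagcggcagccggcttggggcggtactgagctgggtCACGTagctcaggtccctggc
On both strands, ACGTG was present in a window of 15 of the 22 glycolysis and glucose transport genes in the RefSeq table (68.2%) and in 15 of the 19 hypoxia factor targets (78.9%), beside 21.8% of the 27025 genes of the table. Ankrd37 and Pgk1 had 2 matches each and Mif 1. A match is a description of the letters, not a site or a cause, and the hypoxia factor list was drawn up from known targets.

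The lower glycolysis RNA at 50 µM glutamine was spread over the cells. After thinning to 2000 UMIs, a resting cDC1 held a mean of 5.80 UMIs of the list at 50 µM glutamine, 9.20 with DON and 10.9 in the control, with medians of 5, 9 and 10. Only 6.52% of cells at 50 µM glutamine held more than the control's median, against 33.2% with DON and 49.3% in the control itself. The summed level was 3060, 4781 and 5310 CPM among cells with 6 or more markers and 2935, 4588 and 5514 CPM among cells with 4, in the same order, so that marker number hardly moved it. It was 2909, 4589 and 5450 CPM among cells with a UMI of at most 1 of the 8 genes that pick cDC2 besides Cd209a.

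**Figure D3:**
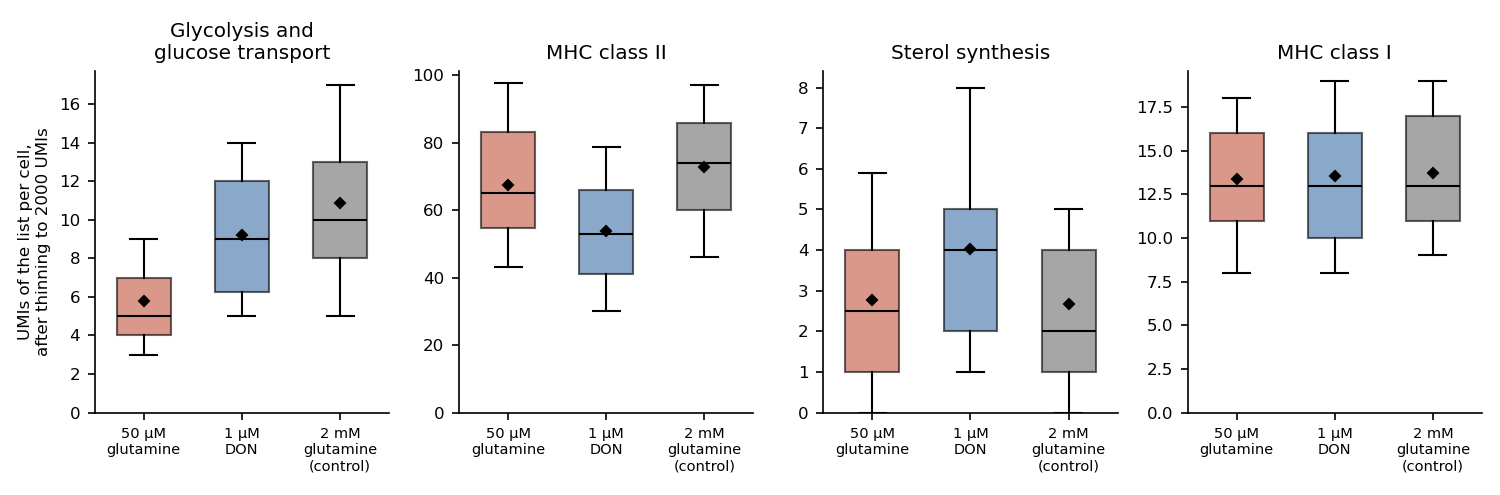
UMIs of 4 gene lists per resting cDC1 after each cell was thinned to 2000 UMIs. Boxes span the quartiles with the median as a line, whiskers run from the 10th to the 90th percentile, and diamonds are means. For glycolysis the medians are 5, 9 and 10 UMIs at 50 µM glutamine, with DON and in the control, and for MHC class I all 3 medians are 13.

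Itga1, Tfrc, Tnfaip2 and Klrk1 were among the genes with the highest ratios at 50 µM glutamine. Itga1, the α1 chain of a collagen-binding integrin, was at 198 CPM (168 to 232) at 50 µM glutamine, 116 CPM (103 to 130) with DON and 77.1 CPM (70.7 to 83.9) in the control, ratios of 1.31 and 0.56. An Itga1 UMI was found in 34.8%, 19.7% and 15.6% of cells thinned to 2000 UMIs, against 1.91%, 1.09% and 1.18% of plasmacytoid cells, and in 80.4%, 59.1% and 47.0% of resting cDC1 without thinning. Itga1 was thus higher both in level and in the share of cells, with DON between the others. Tfrc, the transferrin receptor that imports iron, was at 71.7 CPM (54.0 to 93.3), 50.3 CPM (42.2 to 59.6) and 22.7 CPM (19.4 to 26.6), ratios of 1.47 and 1.00. Tnfaip2, a target of NF-κB, was at 202 CPM (172 to 237), 120 CPM (107 to 134) and 81.8 CPM (75.3 to 88.8), ratios of 1.25 and 0.53. Klrk1 (NKG2D), an activating receptor best known on NK cells, was at 92.6 CPM (72.3 to 117), 32.1 CPM (25.6 to 39.6) and 36.5 CPM (32.1 to 41.2), ratios of 1.23 and -0.16, and so was high at 50 µM glutamine alone.

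Tmem176b and Tmem176a, neighbouring genes on chromosome 6 that encode related ion channels of intracellular membranes, had the highest ratios at 50 µM glutamine among genes of at least 50 CPM, apart from Cxcl10. Tmem176b was at 104 CPM (82.7 to 130) at 50 µM glutamine, 46.2 CPM (38.4 to 55.1) with DON and 25.2 CPM (21.6 to 29.2) in the control, ratios of 1.86 and 0.76. Tmem176a was at 74.3 CPM (56.3 to 96.3), 26.5 CPM (20.7 to 33.4) and 20.7 CPM (17.5 to 24.4), ratios of 1.62 and 0.29. In GRCm38 Tmem176b lies on the minus strand of chromosome 6 from 48833818 to 48841496 and Tmem176a on the plus strand from 48840919 to 48847071, so the genes overlap, and whether the counting used strand is not given in the sources used here. Thinned shares of resting cDC1 with a Tmem176b UMI were 15.2%, 8.03% and 5.15%, and 213 of 1521, 153 of 2014 and 164 of 2201 thinned plasmacytoid cells of the same libraries held one, shares of 7.60% with DON and 7.45% in the control. The share of resting cDC1 lay below that of plasmacytoid cells in the control, and in the treated libraries its counting interval included theirs. Among plasmacytoid cells the share was highest at 50 µM glutamine too, so a higher Tmem176b share there was not particular to resting cDC1. Among cells with at most 1 of the 8 cDC2 genes Tmem176b was at 81.6, 41.0 and 17.9 CPM, the same order of libraries as over all members. Cxcl10, an interferon-induced chemokine, was at 92.6, 0.745 and 10.4 CPM, and 74.6% of its UMIs at 50 µM glutamine were in 1 cell.

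A further group was higher in both treated libraries. S100a4, a calcium-binding protein abundant in cDC2, was at 439 CPM (394 to 489) at 50 µM glutamine, 383 CPM (360 to 407) with DON and 208 CPM (198 to 219) in the control, ratios of 1.06 and 0.86. Ms4a4c was at 99.1, 98.4 and 45.6 CPM, ratios of 1.04 and 1.03, and Hpgd, which inactivates prostaglandins, at 63.9, 56.7 and 24.8 CPM, ratios of 1.21 and 1.05. For these 3 genes the treatments lay close to each other and above the control. Cd300a, an inhibitory receptor, was at 66.5, 50.3 and 25.9 CPM, ratios of 1.21 and 0.84, but a ratio of -0.30 at 50 µM glutamine among cells with 6 or more markers. Marcksl1, an actin-linked protein known from mature dendritic cells, was outside this group, at 176, 52.2 and 68.5 CPM and ratios of 1.30 and -0.36, with 24.4% of its UMIs at 50 µM glutamine in 1 cell.

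The list of cDC2 markers, also higher in sum in both treated libraries, includes S100a4 of this group. S100a4 is thus counted in both, and the list is not a separate observation from that gene. Of 14 cDC2 markers measured at 50 µM glutamine, 8 were at least 1.5-fold higher and none lower, with a median of 0.74, where 8.85% of all genes were that much higher. With DON 2 of 11 were at least 1.5-fold higher and none lower, with a median of 0.51, where 1.61% of all genes were that much higher. The 21 markers summed to 1014, 971 and 656 CPM at 50 µM glutamine, with DON and in the control, and 19 of them were detected in each library. Their sum was 488, 571 and 457 CPM among cells with 6 or more cDC1 markers and 1272, 1214 and 998 CPM among cells with 4. In the cells with 6 or more, S100a4, which is part of these sums, was at 176, 163 and 115 CPM. Ms4a4c was at 25.7, 52.5 and 28.4 CPM there, so that at 50 µM glutamine Ms4a4c was no longer above the control. The median of 0.74 was 0.11 when each gene was counted without the barcode that held most of its UMIs in each library. Whether cDC2 RNA in the members has a part in these differences was not tested.

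**Figure D4:**
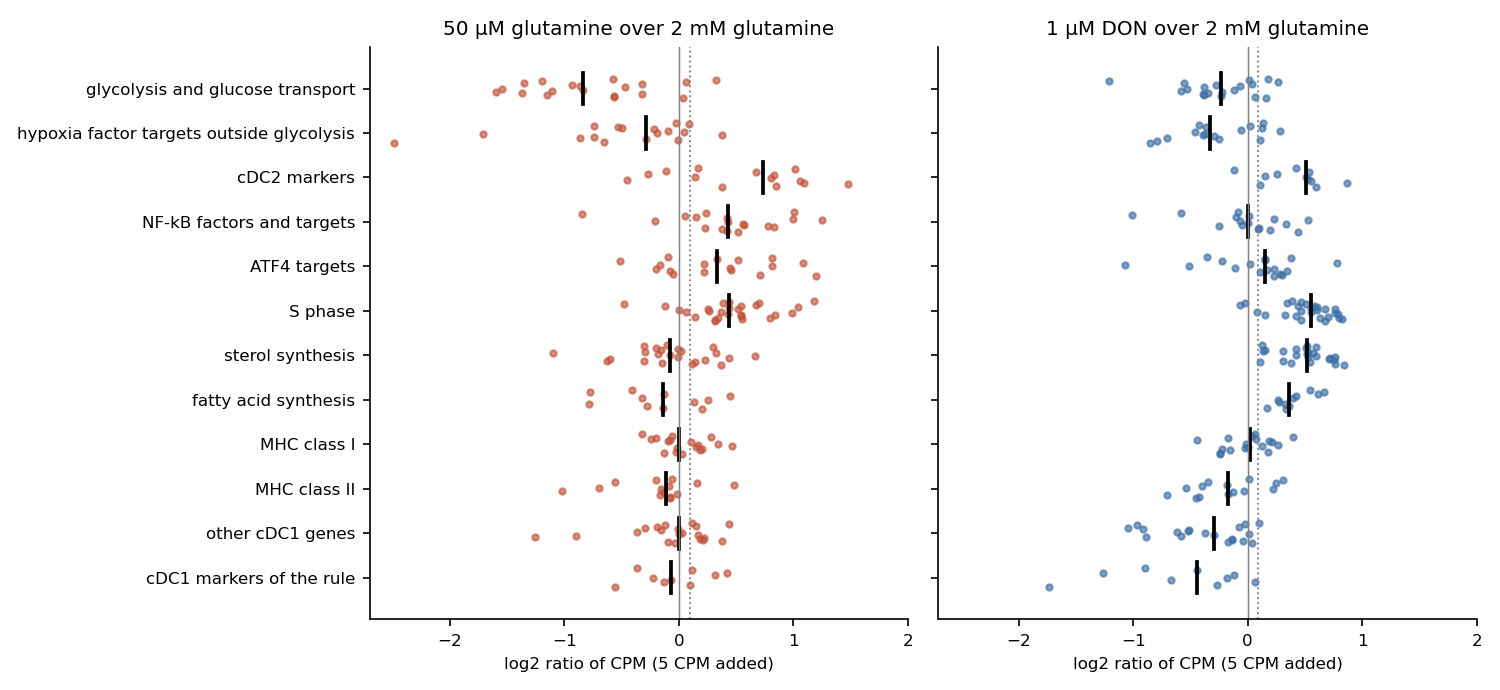
log2 ratio of each measured member of 12 gene lists in resting cDC1, for 50 µM glutamine over 2 mM glutamine on the left and 1 µM DON over 2 mM glutamine on the right, with black bars at the list medians, a solid line at 0 and a dotted line at the median of all genes. The glycolysis median is -0.84 on the left and -0.23 on the right, and all 24 sterol synthesis genes lie above 0 on the right. Both panels share the control library.

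Antigen presentation genes differed by class mainly in the abundant class II chains with DON. MHC class I and its peptide loading genes lay near the control as a list, with 0 of 18 at least 1.5-fold higher or lower in either treatment and medians of 0.00 at 50 µM glutamine and 0.02 with DON. Per thinned cell they summed to means of 13.4, 13.5 and 13.7 UMIs at 50 µM glutamine, with DON and in the control. The MHC class II chains were lower with DON. H2-Eb1, the β chain of I-E, was at 4091 CPM (3949 to 4237) at 50 µM glutamine, 2813 CPM (2750 to 2877) with DON and 4585 CPM (4534 to 4635) in the control, ratios of -0.16 and -0.70. H2-Aa, the α chain of I-A, was at 6131 CPM (5957 to 6309), 4737 CPM (4655 to 4820) and 6488 CPM (6428 to 6548), ratios of -0.08 and -0.45. H2-Ab1, its β chain, and Cd74, the invariant chain, had ratios of -0.43 and -0.40 with DON and -0.08 each at 50 µM glutamine. Over the 14 class II genes the medians were -0.11 at 50 µM glutamine and -0.17 with DON, beside 0.10 and 0.09 over all genes. Only H2-Eb1 of the 14 class II genes was at least 1.5-fold lower with DON, beside 1.63% of all genes. At 50 µM glutamine H2-DMb2 and H2-Ob, which edit and limit peptide loading, were, at ratios of -1.02 and -0.70, beside 3.73% of all genes. Ciita, the class II transactivator, did not follow the chains, at 396, 250 and 283 CPM and ratios of 0.48 and -0.18.

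Class II RNA was lowest with DON per cell as well, in sums that weigh the abundant chains most. Thinned cells held means of 67.6 UMIs of the class II list at 50 µM glutamine, 53.9 with DON and 72.8 in the control, and 34.8%, 14.2% and 49.1% of cells lay above the control's median. The summed level was 40938, 31838 and 39549 CPM among cells with 6 or more markers, 32861, 26502 and 33848 CPM among cells with 5, and 29025, 24607 and 32100 CPM among cells with 4. The level was lowest with DON in these 3 strata, while the 50 µM glutamine library lay above the control among cells with 6 or more markers and below it in the others.

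The promoter windows of H2-Aa and H2-Eb1 are given because they hold the letters of the class II Y box, the element bound by NF-Y. Capitals mark CTGATTGG or its reverse complement CCAATCAG.
H2-Aa, chr17:34287774-34288073, minus strand: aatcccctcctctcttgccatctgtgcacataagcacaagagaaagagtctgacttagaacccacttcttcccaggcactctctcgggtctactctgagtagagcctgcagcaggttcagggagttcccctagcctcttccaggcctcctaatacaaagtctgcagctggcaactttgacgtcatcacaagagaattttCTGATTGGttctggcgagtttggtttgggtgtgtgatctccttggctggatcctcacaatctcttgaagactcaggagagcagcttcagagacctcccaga
H2-Eb1, chr17:34305617-34305916, plus strand: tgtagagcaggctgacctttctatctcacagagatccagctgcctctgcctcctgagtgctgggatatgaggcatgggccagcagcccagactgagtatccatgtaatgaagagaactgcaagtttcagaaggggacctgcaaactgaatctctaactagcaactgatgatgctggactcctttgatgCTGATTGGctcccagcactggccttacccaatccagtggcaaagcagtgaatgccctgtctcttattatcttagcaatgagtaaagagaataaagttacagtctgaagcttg
Among the 11 class II genes listed by RefSeq, 3 held the motif in a window (27.3%), the third being H2-Oa, beside 4.70% of all genes. H2-Aa and H2-Eb1 shared the motif and differed in their ratios with DON.

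Cross-presentation and uptake genes differed little. Of 17 measured, 3 were at least 1.5-fold higher at 50 µM glutamine, beside 8.85% of all genes, and none lower, with a median of 0.09. With DON 1 was lower, beside 1.63% of all genes, and none higher, with a median of -0.03. Lnpep (IRAP), an aminopeptidase of endosomes that trims peptides for class I, was at 120, 69.0 and 63.1 CPM, ratios of 0.88 and 0.12. Rab27a, which brings the NADPH oxidase to phagosomes, was at 32.6, 20.1 and 15.0 CPM, ratios of 0.91 and 0.33. Syk, the kinase downstream of CLEC9A, was at 44.3, 37.6 and 26.9 CPM, ratios of 0.63 and 0.42. These genes lay above the control mainly at 50 µM glutamine.

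Sterol synthesis genes, which SREBP2 drives and which make cholesterol from acetyl-CoA, stood higher with DON. Hmgcs1, HMG-CoA synthase, was at 115 CPM (92.0 to 141) at 50 µM glutamine, 183 CPM (168 to 200) with DON and 106 CPM (98.4 to 114) in the control, ratios of 0.11 and 0.76. Fdps, which makes farnesyl diphosphate, was at 186 CPM (157 to 220), 470 CPM (444 to 497) and 286 CPM (274 to 299), ratios of -0.60 and 0.71. Fdps was thus lower than the control at 50 µM glutamine and higher with DON. Idi1 was at 120, 175 and 102 CPM, ratios of 0.23 and 0.75, and Sqle, squalene epoxidase, at 40.4, 72.7 and 40.8 CPM, ratios of -0.01 and 0.76. All 24 genes of the list lay above 0 with DON, as did 5690 of all 8693 genes, and 8 of the 24 were at least 1.5-fold higher, beside 1.61% of all genes, with a median of 0.52 beside 0.09. At 50 µM glutamine 1 of 23 was at least 1.5-fold higher and 3 lower, beside 8.85% and 3.73% of all genes, with a median of -0.07. Nsdhl was among the lower at 7.82, 35.8 and 22.5 CPM, ratios of -1.10 and 0.57. Per thinned cell the list gave means of 2.77, 4.01 and 2.67 UMIs, and 65.3% of cells with DON lay above the control's median. Genes of fatty acid synthesis followed with DON, 2 of 11 at least 1.5-fold higher, beside 1.61% of all genes, and none lower, with a median of 0.36, led by Acss2 at 0.67 and Fads2 at 0.62, beside -0.14 at 50 µM glutamine.

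The promoter window of Hmgcs1 is given because it alone among the 17 sterol genes of the RefSeq table held TCACNCCAC or its reverse complement GTGGNGTGA, the sterol regulatory element read with 1 free base. Capitals mark it.
Hmgcs1, chr13:119690101-119690400, plus strand: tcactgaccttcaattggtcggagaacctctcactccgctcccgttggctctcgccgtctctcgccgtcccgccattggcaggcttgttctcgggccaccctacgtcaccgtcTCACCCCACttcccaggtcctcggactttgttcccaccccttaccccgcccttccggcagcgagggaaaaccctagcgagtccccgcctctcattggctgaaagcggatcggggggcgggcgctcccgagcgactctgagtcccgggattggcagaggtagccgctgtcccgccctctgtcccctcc
That is 5.88% of the list, beside 1.44% of all genes, and says only that these letters were not in the other windows.

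Mitochondrial genes differed less. The TCA cycle list had 0 of 19 genes past 1.5-fold in either treatment, with medians of -0.01 at 50 µM glutamine and 0.22 with DON. Nuclear genes of the respiratory chain had medians of -0.07 and 0.11, and those of the mitochondrial genome 0.21 and 0.23, in the same order. mt-Nd3 alone of the 13 mitochondrial genes was at least 1.5-fold higher with DON, beside 1.61% of all genes. It was at 533, 607 and 389 CPM, ratios of 0.45 and 0.64.

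Targets of ATF4, the factor of the amino acid response, were higher in part at 50 µM glutamine. Asns, asparagine synthetase, which uses glutamine as its nitrogen donor, was at 15.6 CPM (8.08 to 27.3) at 50 µM glutamine, 5.59 CPM (3.13 to 9.22) with DON and 4.01 CPM (2.66 to 5.79) in the control, ratios of 1.20 and 0.23. Slc7a5 (LAT1), which imports large neutral amino acids, was at 19.6, 14.9 and 6.58 CPM, ratios of 1.08 and 0.78. Sesn2, a leucine sensor that restrains mTORC1, was at 19.6, 4.85 and 9.01 CPM, ratios of 0.81 and -0.51. These are low levels, resting on 12 to 15 UMIs at 50 µM glutamine. Of 17 ATF4 targets measured, 5 were at least 1.5-fold higher at 50 µM glutamine and none lower, beside 8.85% and 3.73% of all genes, with a median of 0.33. A target counted as measured from 5 CPM in either library, which Asns reached only at 50 µM glutamine in this comparison. Per thinned cell the list differed little, with means of 1.14, 0.909 and 1.02 UMIs at 50 µM glutamine, with DON and in the control. Cells above the control's median were 27.2%, 24.8% and 26.2%. With DON 1 was higher and 1 lower, beside 1.61% and 1.63% of all genes, with a median of 0.15. The one lower with DON was Atf3, at 26.1, 11.6 and 29.8 CPM and a ratio of -1.07.

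Some genes of NF-κB and its feedback were higher at 50 µM glutamine. Besides Tnfaip2, Cxcl16, a chemokine that also binds oxidised lipoprotein, was at 76.9 CPM (58.6 to 99.2) at 50 µM glutamine, 33.5 CPM (27.0 to 41.2) with DON and 35.8 CPM (31.5 to 40.5) in the control, ratios of 1.01 and -0.08. Tnip1, an inhibitor of NF-κB signalling, was at 35.2, 18.6 and 15.2 CPM, ratios of 1.00 and 0.23. Of 18 genes measured 5 were at least 1.5-fold higher and 1 lower at 50 µM glutamine, beside 8.85% and 3.73% of all genes, with a median of 0.43, and with DON 0 of 16 were higher and 1 lower, beside 1.61% and 1.63% of all genes, with a median of 0.01. The lower gene in both was Ier3, at 15.6, 13.4 and 32.0 CPM and ratios of -0.84 and -1.01. Mature dendritic cell markers, several of them NF-κB targets, had 7 of 16 at least 1.5-fold higher and 1 lower at 50 µM glutamine, with a median of 0.41, and 1 of 15 higher and 2 lower with DON, with a median of -0.29, beside the same shares of all genes. Cd40 was at 19.6, 7.45 and 6.01 CPM and Relb at 26.1, 9.69 and 12.4 CPM, and Cd83 was lowest with DON, at 20.9, 10.1 and 22.6 CPM. At 50 µM glutamine these rest on 15 to 20 UMIs, and the rule removed every cell with Ccr7 or Fscn1. The median of the mature markers was -0.051 at 50 µM glutamine among cells with 6 or more markers, and the ratio of Cd40 was -1.10 there against 1.16 over all members.

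Receptors for growth factors and chemokines gave 5 of 18 at least 1.5-fold higher and 1 lower at 50 µM glutamine, where 8.85% and 3.73% of all genes were, with a median of 0.11 beside 0.10 over all genes. Csf2rb2, a β chain of the IL-3 receptor in mice, was at 52.1, 26.5 and 26.6 CPM, ratios of 0.85 and -0.01, and Il10ra at 69.1, 38.4 and 38.3 CPM, ratios of 0.77 and 0.00, with -0.0068 at 50 µM glutamine among cells with 6 or more markers. With DON 0 of 17 were higher and 2 lower, where 1.61% and 1.63% of all genes were, with a median of -0.0069, the lower ones being Csf2ra and Il15ra. Interferon response genes had medians of 0.09 and -0.08, and innate sensing genes of 0.09 and -0.03, at 50 µM glutamine and with DON.

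Replication genes had medians above that of all genes in both treated libraries, in cells from which the rule had removed those with 2 or more UMIs of Mki67 and Top2a. Of 27 S phase genes, 7 were at least 1.5-fold higher at 50 µM glutamine and 11 with DON, where 8.85% and 1.61% of all genes were that much higher, none was lower, and the medians were 0.44 and 0.55 beside 0.10 and 0.09. Mcm5, a subunit of the replicative helicase, was at 43.0 CPM (29.6 to 60.4) at 50 µM glutamine, 42.9 CPM (35.4 to 51.4) with DON and 22.6 CPM (19.2 to 26.4) in the control, ratios of 0.80 and 0.79. Mcm4 had ratios of 0.55 and 0.82, and Lig1, the ligase that joins Okazaki fragments, of 1.18 and 0.39. Cbx5 (HP1α), a heterochromatin protein, was at 49.5, 62.6 and 31.0 CPM, ratios of 0.60 and 0.91. S phase RNA per thinned cell had means of 1.83, 2.11 and 1.42 UMIs. Among cells under 8000 UMIs the summed level was 489, 465 and 431 CPM, against 1464, 1284 and 845 CPM among deeper cells, so that the treatments stood above the control mainly in cells of more RNA. For G2 and mitosis genes the treatments differed. At 50 µM glutamine 7 of 19 were at least 1.5-fold higher and 1 lower, beside 8.85% and 3.73% of all genes, with a median of 0.52. With DON 0 of 14 were past 1.5-fold, with a median of 0.13. Thinned cells above the control's median for that list were 28.3%, 36.1% and 31.4%.

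Further genes higher with DON included Cfp (properdin), which stabilises the alternative complement convertase, at 130, 165 and 91.4 CPM and ratios of 0.49 and 0.82. Lgals1 (galectin 1) was at 467 CPM (420 to 518) at 50 µM glutamine, 820 CPM (786 to 855) with DON and 480 CPM (464 to 497) in the control, ratios of -0.04 and 0.77, and was thus high with DON alone. Fam111a, a protease active at replication forks, had ratios of 0.80 and 0.80, and Gcnt2, a glycosyltransferase, of 0.59 and 0.77. Ctsd, a lysosomal protease, had 20.1% of its UMIs with DON in 1 cell.

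The same ratios in cDC2 of the same libraries show which differences were shared. The cDC2 were 420 cells at 50 µM glutamine, 379 with DON and 633 in the control. Glycolysis and hypoxia factor genes were low at 50 µM glutamine in both lineages: Pgk1 had ratios of -1.54 in resting cDC1 and -1.45 in cDC2, Mif of -1.71 and -1.94, Ankrd37 of -2.49 and -2.95, and Aldoa of -1.37 and -0.87. Itga1 and Tnfaip2 were higher in both, at 1.31 and 1.25 in resting cDC1 and 1.26 and 1.78 in cDC2. Tmem176b and Hpgd differed, at 1.86 and 1.21 in resting cDC1 and 0.26 and 0.14 in cDC2, where both genes are abundant already. Tgfbi ran the other way, with -0.21 in resting cDC1 and 1.09 in cDC2 at 50 µM glutamine. With DON, the ratio of H2-Eb1 was -0.70 in resting cDC1 and -0.24 in cDC2. The cDC2 rule asked for a minimum of H2-Ab1 UMIs and the resting cDC1 rule did not, so class II ratios of the lineages are not directly comparable. The ratio of Agpat3 with DON was -1.01 in resting cDC1 and 0.00 in cDC2, that of Tbxas1 -0.88 and 0.21, and that of Csf2ra -0.80 and 0.02. With 1 library a group, whether the lineages differ in any of these ratios was not tested.

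**Figure D5:**
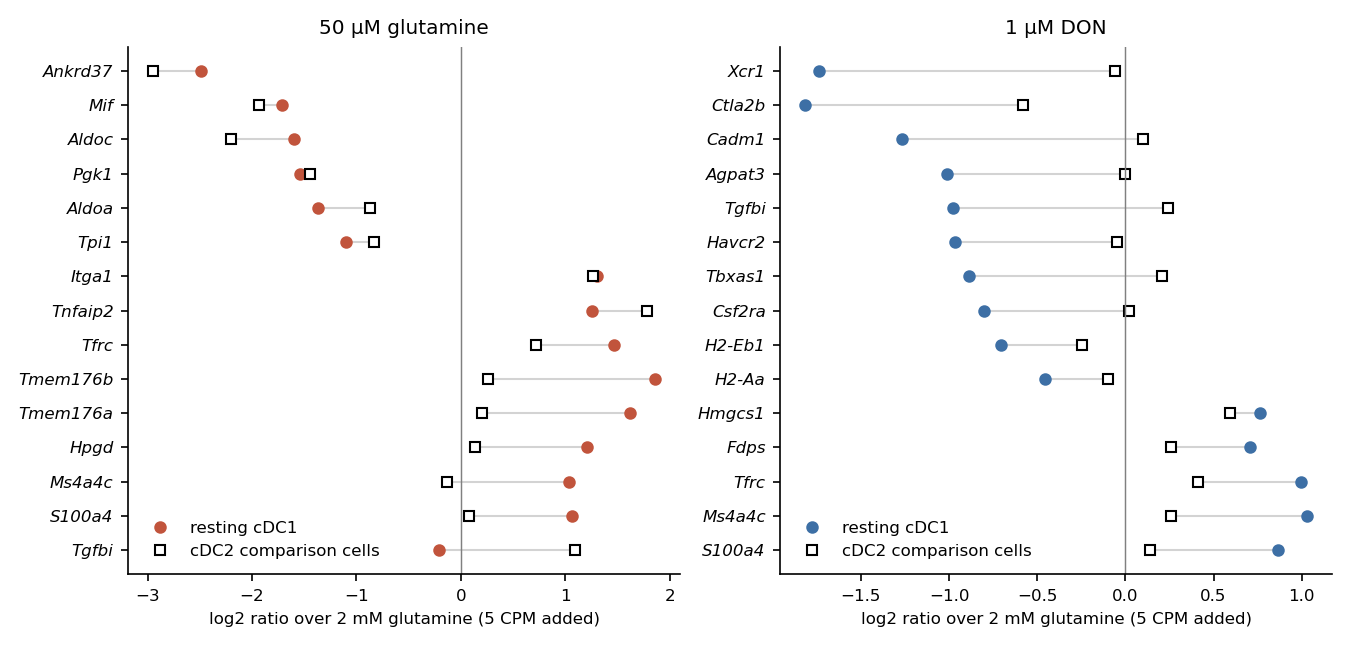
log2 ratios over the control library in resting cDC1 (filled circles) and in cDC2 comparison cells (open squares) of the same libraries, for 50 µM glutamine on the left and 1 µM DON on the right. The glycolysis and hypoxia factor genes at the top left are low in both lineages, whereas Agpat3, Havcr2, Tbxas1 and Csf2ra, low with DON in resting cDC1, lie between -0.04 and 0.21 in cDC2.

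Markers of other cell types were present in the members, some of them concentrated in single barcodes. The 7 neutrophil markers summed to 89.95, 501 and 648 CPM at 50 µM glutamine, with DON and in the control, and S100a8 and S100a9 carried 23.8% and 25.1% of their control UMIs in 1 barcode each. S100a8 was at 23.5, 195 and 263 CPM and S100a9 at 46.9, 279 and 316 CPM. Lpl, lipoprotein lipase, was at 3.91, 38.4 and 50.8 CPM, with 27.6% of its control UMIs in 1 barcode. These genes are among the lowest at 50 µM glutamine by ratio. The 14 monocyte and macrophage markers summed to 1649, 731 and 967 CPM, mostly from Lyz2 at 1546, 573 and 845 CPM, of which 69 of 92, 124 of 274 and 486 of 757 thinned resting cDC1 held a UMI, against 8.28%, 6.41% and 7.36% of plasmacytoid cells. T and NK markers summed to 1.30, 10.8 and 9.30 CPM, basophil and mast cell markers to 1.30, 1.49 and 22.9 CPM, and plasmacytoid markers to 581, 578 and 582 CPM. The part of such RNA in the differences above was not tested.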

How the data were processed

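Dendritic cells were profiled with droplet 3′ chemistry in 3 libraries, 1 per condition. The values deposited by the authors are raw UMI counts for each gene in barcodes that their pipeline had called as cells. Cell Ranger is named as 6.0.0 per the file headers and as 3.1.0, with the mm10 genome, per the submitters' processing notes, so the version that made the counts is not settled, and the gene annotation is not given in the sources used here. Barcodes with at least 1000 UMIs, 500 genes and at most 10% mitochondrial UMIs were kept, and resting cDC1 were picked by the rule given in the report. The members and gene lists were chosen with earlier results of these data known.

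UMIs were summed over the members of a library and scaled to counts per 1000000 UMIs (CPM), and ratios are log2 of CPM with 5 CPM added. Poisson intervals are exact, at the 95% level. No count model was fitted, since a group was 1 library. Genes were counted at 2-fold from 20 CPM and list members at 1.5-fold from 5 CPM. Either library of a comparison could meet these levels, so a gene could pass through the higher library alone. The text names, per treatment, the 12 highest and lowest ratios from 50 CPM, up to 4 members of each list, the rule markers with a few fixed cDC1 genes and Asns, the 10 most variable genes per library, and the 6 largest differences to cDC2 either way, leaving out some of these. Genes named after their values were seen are marked as such. Single-cell shares were compared after thinning to 2000 UMIs, and 1 control member below that depth was left out. Doublets were not removed, and Scrublet (scanpy 1.11.5) marked 0, 3 and 20 members at 50 µM glutamine, with DON and in the control. The scripts were tested on simulated data. Python 3.11.15 and scipy 1.17.1 were used. Promoters came from RefSeq and gene positions from GENCODE vM21 (GRCm38), in which 99.6% of the 32285 gene identifiers were found.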

Additional observations from a re-analysis of the deposited data

How the results depend on the processing

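The order of the libraries by share of resting cDC1, 50 µM glutamine below DON below the control, was the same under every alternative run. The shares in that order were 1.36%, 4.24% and 8.64% with at least 3 markers, 0.560%, 1.81% and 5.56% with at least 5, and 1.29%, 4.04% and 8.42% with at least 3 of the 7 markers other than Xcr1 and Cadm1. They were 1.58%, 3.47% and 8.05% with no condition on Cd209a, 1.28%, 3.74% and 9.49% among barcodes of 5000 to 20000 UMIs, and, with the rule read after thinning to 5000 UMIs, 2.51% with DON and 8.06% in the control.

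Counts of genes past 2-fold depended on the settings more than the ratios did. At 50 µM glutamine the 39 higher genes became 173 with at least 3 markers, 76 with at least 5, 155 with 3 of 7 markers, 85 with 1 CPM added, 9 with 20 CPM added and 97 with a filter of 5 CPM or none. The 22 lower genes there became 36 with at least 5 markers, 9 with 20 CPM added and 66 with a filter of 5 CPM or none. With DON the 2 higher genes became 5 with at least 3 or at least 5 markers, 1 with 3 of 7 markers or no condition on Cd209a, 4 after thinning to 5000 UMIs, with 1 CPM added or with a filter of 5 CPM or none, 0 with median-of-ratios scaling or 20 CPM added, and 6 as a mean over cells. The 12 lower genes with DON became 4 with 20 CPM added and 24 with a filter of 5 CPM or none.

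4 alternatives were chosen after seeing the data: leaving out each gene's highest barcode, members with at most 1 of 8 cDC2 markers, members with 6 or more markers, and leaving out barcodes with 5 or more UMIs of S100a8 or S100a9. Leaving out the barcode with most UMIs of each gene gave 17 higher genes at 50 µM glutamine and 1 with DON. Members with at most 1 of 8 cDC2 markers gave 89 higher genes at 50 µM glutamine and 4 with DON. Members with 6 or more markers, 29 cells at 50 µM glutamine, gave 144 higher and 136 lower genes there, and 27 higher and 36 lower with DON.

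Among those cells the ratios at 50 µM glutamine turned to -0.60 for Apol7c, -0.30 for Cd300a, -1.10 for Cd40, -1.98 for Cxcl10, -0.0068 for Il10ra and -0.12 for Ms4a4c, the median of the mature dendritic cell markers to -0.051, and the DON ratio of Ctsd to -1.02. Cd40 was at -0.18 with at least 5 markers. Genes held by single barcodes turned too. Ctla2a at 50 µM glutamine was at 2.96 with at least 3 markers, 2.99 with 3 of 7, 0.50 from 5000 to 20000 UMIs, 0.17 after thinning, 0.27 without its highest barcode and 0.51 with 6 or more markers, and with DON at 0.20, 0.14 and 0.13 under the 5000 to 20000 UMI, thinning and highest-barcode alternatives. Lpl was at 1.86 with at least 3 markers, and S100a8 and S100a9 were at 0.22 and 0.56 without barcodes of 5 or more of their UMIs. The cause of these changes was not tested.

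No paired analysis was possible because each condition was a single library with no replicate number. The 92 cells at 50 µM glutamine limit that library most, where 3 UMIs of a gene correspond to 3.91 CPM.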

Other observations

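Some single genes varied between resting cDC1 by more than sampling alone gives, and those named here were picked for that. Ctsb, cathepsin B of lysosomes, had a variance over mean of 6.09 at 50 µM glutamine, 16.7 with DON and 7.14 in the control after thinning to 2000 UMIs, where sampling alone gives about 1, and a UMI in 28.3%, 19.0% and 20.1% of cells. Fth1, the ferritin heavy chain that stores iron, had a variance over mean of 5.56 at 50 µM glutamine and 8.16 with DON, with up to 56 and 81 UMIs in a cell beside means of 6.33 and 5.39. Malat1, a nuclear RNA, was lowest with DON, at 17631, 10281 and 15094 CPM at 50 µM glutamine, with DON and in the control.

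Ifitm1, an interferon-induced membrane protein that restricts viruses, was at 1326 CPM (1246 to 1410) at 50 µM glutamine, 926 CPM (890 to 963) with DON and 680 CPM (661 to 700) in the control, with ratios of 0.96 and 0.44 in resting cDC1 and -0.06 and -0.36 in cDC2. Neat1, another nuclear RNA, was at 206, 182 and 287 CPM, ratios of -0.47 and -0.65, beside 0.60 and 0.15 in cDC2. Apol7c, an apolipoprotein of mouse cDC1, was at 185, 131 and 111 CPM, ratios of 0.72 and 0.23. Cdkn1a (p21), which halts the cell cycle, was at 83.4 CPM (64.3 to 107), 24.2 CPM (18.7 to 30.9) and 42.4 CPM (37.7 to 47.5), ratios of 0.90 and -0.70, and lay above the control at 50 µM glutamine and below it with DON.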
